A study of Drosophila melanogaster and Drosophila simulans and Drosophila yakuba with 72 samples.

Results

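Drosophila simulans males at puparium formation were compared with males of an earlier stage for microRNAs (miRNAs), the short RNAs that guide Argonaute proteins to messenger RNAs. The members were chosen by 3 labels, the stock (14021-0251.167), male sex and the development state, which gave 8 of the 72 samples of the series, on 4 of its 36 two-colour arrays. There were 4 pools of males labelled PF, taken here as puparium formation, and they are set against 4 pools of males whose label places them at least 18 before that event, with no unit, taken here as hours. All 8 were whole animals of 1 wild stock with no transgene or treatment named in the labels, grown at 25 °C, and each pool held 60 to 80 individuals, or about 120 mg. The design text of the series calls the 4 pools of a stage biological replicates. Each array carried 1 pool of each stage, with the PF pool in Cy5 on replicates 1 and 3 and in Cy3 on replicates 2 and 4. The other sets served for comparison, each with the same stages: D. simulans females (8 samples), males of 4 D. melanogaster strains (Samarkand, Zimbabwe-109, Oregon-R and Canton-S, 32 samples) and males of a D. yakuba stock (14021-0261.00, 8 samples).

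A miRNA pairs with its targets mainly through its seed, bases 2 to 8, so miRNAs with the same seed form families that can reach the same targets. In flies the steroid hormone ecdysone triggers the formation of the puparium, and in D. melanogaster let-7, miR-100 and miR-125, which are made from 1 transcript, come on with the ecdysone pulses of metamorphosis, while miR-34 is known to go down with ecdysone. Larval tissues such as the gut and salivary glands are later dismantled by cell death while imaginal discs and histoblasts build the adult, and miRNAs of growth, cell death and neural development act in that turnover.

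The sequences below are the targets of the probes on which the stage change turned, as given in the deposited array files, with the seed in capitals. The chromosome arm is that of the D. melanogaster hairpin in RefSeq (Release 6), since the files name no genome build. The 3 miRNAs of the let-7 complex, which lie on 2L, have 3 different seeds.
let-7: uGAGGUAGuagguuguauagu
miR-100: aACCCGUAaauccgaacuugug
miR-125: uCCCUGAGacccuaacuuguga
The miR-276 pair, on 3L, is shown because its members share a seed and both rose.
miR-276a: uAGGAACUucauaccgugcucu
miR-276b: uAGGAACUuaauaccgugcucu
The miR-2 family is shown because 5 of its probes share a seed and are alike over much of their length. The hairpins lie on 2L (miR-2a and miR-2b), 3R (miR-2c and miR-11), and both 3R and X (miR-13b).
miR-2a: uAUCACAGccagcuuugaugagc
miR-2b: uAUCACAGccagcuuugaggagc
miR-2c: uAUCACAGccagcuuugaugggc
miR-13b: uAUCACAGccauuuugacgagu
miR-11: cAUCACAGucugaguucuugc
Another seed is common to miR-306 and miR-275, both on 2L, which are shown because their values differed.
miR-306: uCAGGUACuuagugacucucaa
miR-275: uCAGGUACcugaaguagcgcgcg
Among the miRNAs that fell, miR-34 lies on 3R, and miR-958, miR-289 and mir-314 lie on 3L.
miR-34: uGGCAGUGugguuagcugguug
miR-958: aGUAGAAUagcaggcuuaucaca
miR-289: uAAAUAUUuaaguggagccugcgacu
dsi-mir-314-5p: aACUUGUGuggcuucgaauguac

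Of 1339 miRNA probes, 272 were tested, because at least 1 group of the series had 3 or more samples above background, and a probe counted as detected where its intensity exceeded the empty spots of its channel by 3 SD. Between 162 and 201 probes were detected in the PF pools and between 135 and 258 in the earlier ones. The 258 belong to earlier replicate 3, whose empty spots varied least among the 4 Cy3 channels (SD 4.93). Log2 intensities correlated at 0.961 to 0.988 between replicates of a stage, and the log2 differences of the 4 arrays correlated at 0.808 to 0.971 with each other over the 272 probes. Arrays 2 and 4, both with the PF pool in Cy3, were the closest pair, and array 3 stood in the 2 lowest pairs. The 5S rRNA control spots had raw medians of 4959 to 16622 at PF, against 1290 to 3880 earlier. The spike-in controls with perfect match read 19935 to 27293 at PF and 18608 to 27385 earlier. The part of the 5S difference in the results was not tested. Because these are whole animals, fewer cells of a type and less RNA per cell cannot be told apart.

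At PF, 88 probes were higher and 34 lower than at the earlier stage at a Benjamini-Hochberg adjusted p under 0.05 in limma's moderated test, which is 32.4% and 12.5% of the tested probes and 44.9% together. At an unadjusted p under 0.05 there were 133 probes. For 93 probes (34.2%) the 4 PF values and the 4 earlier values did not overlap. The median log2 change over all tested probes was 0.15, and it ranged from -0.01 to 0.35 over 8 other scalings. Of 66 tested probes listed for D. simulans, 23 rose and 5 fell, and of 47 custom probes 8 rose and 17 fell. Of 119 probes detected in all 8 samples, 50 rose and 19 fell. Of 49 detected in none of the 8, 2 were called higher.

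**Figure D1:**
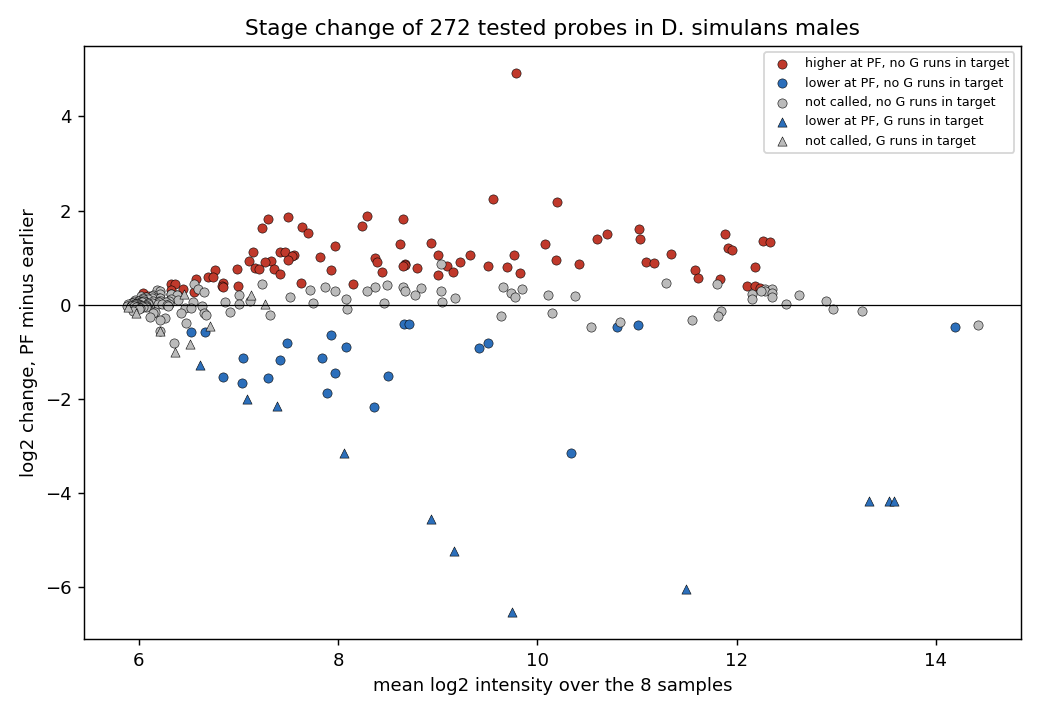
Log2 change from the earlier stage to PF (vertical) against mean log2 intensity over the 8 samples (horizontal), 1 point per tested probe. Red marks the 88 probes higher at PF, blue the 34 lower and grey those not called, and triangles mark targets with runs of G, none of which was red.

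Among the 272 tested probes let-7 had the largest rise. This heterochronic miRNA controls the timing of developmental transitions. Its log2 intensities were 12.55, 12.11, 12.38 and 11.94 in the PF pools, against 7.51, 7.24, 7.08 and 7.44 in the earlier pools. All 4 PF pools stood far above all 4 earlier ones. The log2 change was 4.93 ± 0.24 (SE, n = 4 arrays), or 30.4-fold, with an adjusted p of 6.44e-25. Here and below, SEs and p-values come from a fit to all 72 samples. Their spread is estimated over its 18 groups, not from the 4 arrays alone.

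Its cluster partner miR-100 had log2 intensities of 8.42, 9.13, 7.99 and 8.18 at PF, against 6.61, 6.66, 6.52 and 6.45 earlier. It was detected in 4 of 4 PF pools and in 0 of 4 earlier pools, so its rise has only a bound, at least 3.29-fold (adjusted p = 5.02e-13). The bound sets the PF mean against, per array, the higher of the probe's own earlier value and the lowest signal among detected probes. miR-125, which in D. melanogaster acts with let-7 in the maturation of adult neuromuscular features, had log2 intensities of 7.61, 8.34, 8.68 and 7.58 at PF, against 6.34, 6.59, 6.34 and 6.43 earlier. Again the stages did not overlap, 4 of 4 against 0 of 4 pools were detected, and the rise was at least 2.64-fold (adjusted p = 1.64e-07). Of 9 tested probes for the complex, 5 rose and 0 fell (55.6% called, against 44.9% of all tested probes). Their median log2 change was 0.31 against 0.15 over all probes, and 2 of the 9 were detected in no sample. The 5 that rose were the probes of let-7, miR-100 and miR-125, another miR-125 form (ame-miR-125) and cqu-miR-125*. cqu-miR-125* was among the 2 not detected, with a change of 0.25 ± 0.09 (adjusted p = 0.0208).

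**Figure D2:**
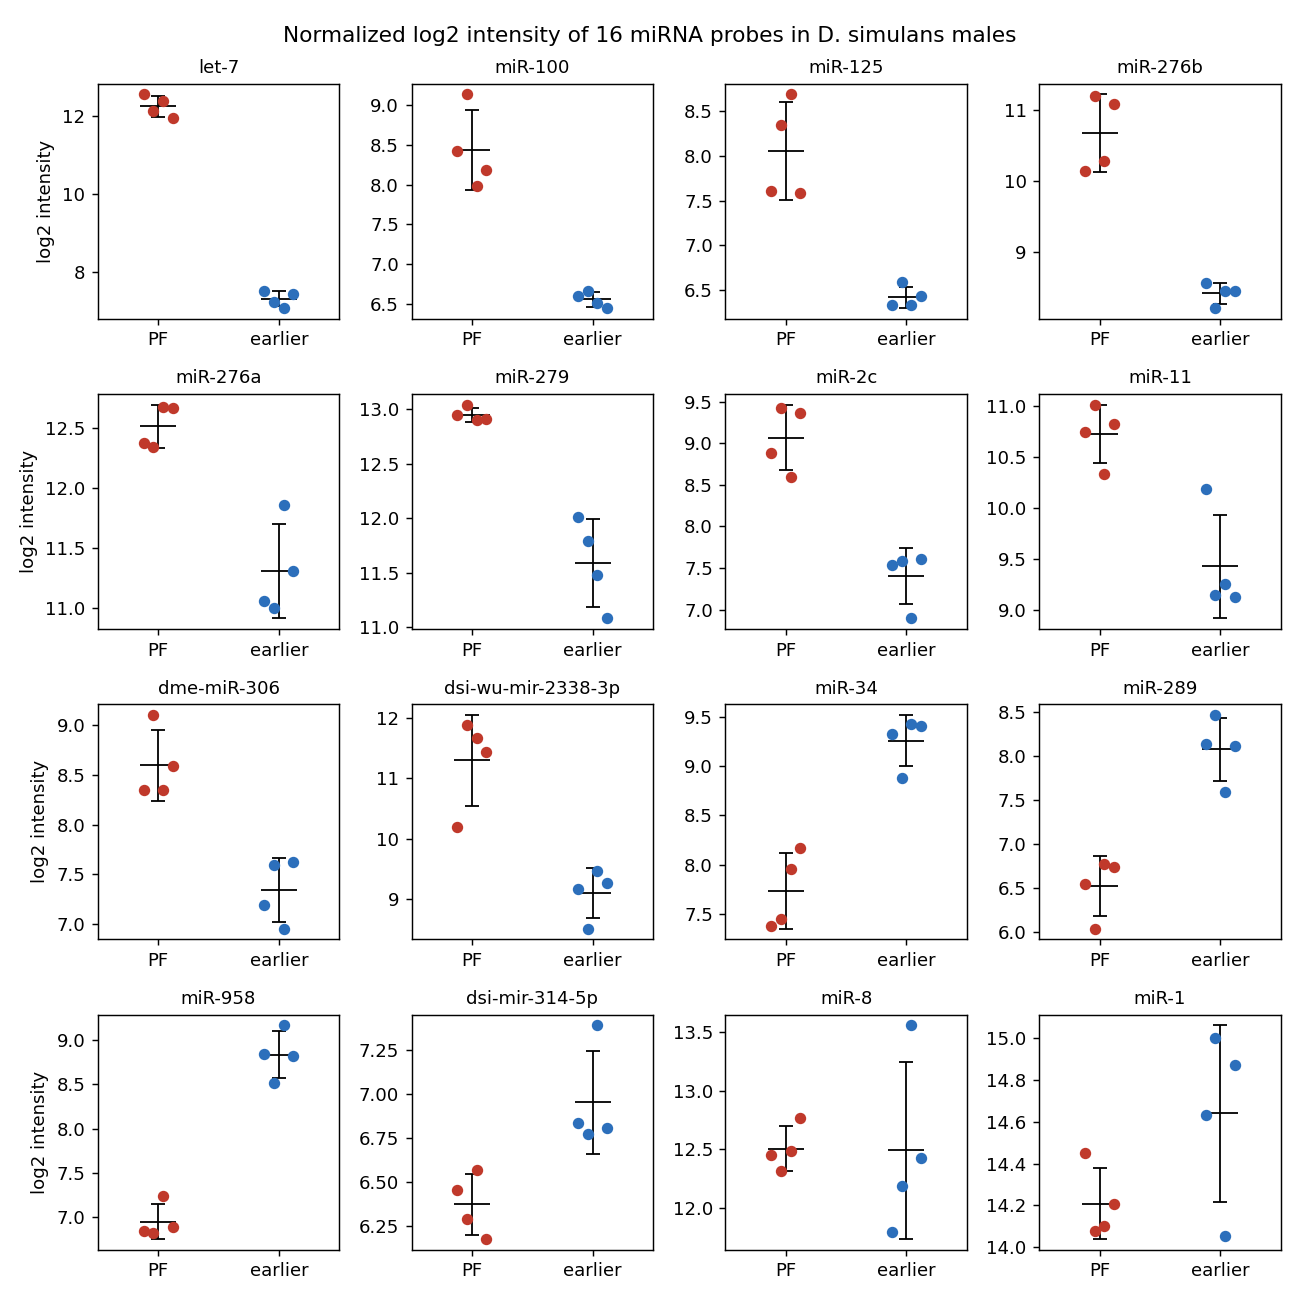
Normalized log2 intensity (vertical, its own range in each panel) of 16 miRNA probes in the 4 PF pools (red, left) and the 4 earlier pools (blue, right). Horizontal marks are means and bars are SDs. let-7 sits near 12 at PF and near 7 earlier, while miR-8 and miR-1 overlap between the stages.

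The miR-276 family, studied in D. melanogaster for its roles in memory and circadian behaviour, rose in 11 of 11 tested probes, against 32.4% of all tested probes. Most of the 11 are for forms listed for other species, and the targets of miR-276a and miR-276b are nearly alike. Several probes may therefore read the same RNA, which was not tested. miR-276b had log2 intensities of 10.14, 11.20, 10.28 and 11.08 at PF, against 8.57, 8.22, 8.46 and 8.46 earlier, a change of 2.25 ± 0.23 (4.74-fold, adjusted p = 4.09e-12). miR-276a had log2 intensities of 12.38, 12.35, 12.68 and 12.67 at PF, against 11.06, 10.99, 11.86 and 11.31 earlier, a change of 1.21 ± 0.16 (adjusted p = 2.69e-09). In both, every PF pool lay above every earlier pool. The size for miR-276b differed with the dye of the PF pool, with a mean change of 1.70 on the arrays with PF in Cy5 and 2.80 on those with PF in Cy3. The opposite arm, dme-miR-276*, rose by 0.93 ± 0.18 on the log2 scale (adjusted p = 1.91e-05). The family's median log2 change was 1.04.

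In the miR-2/13 family, which in D. melanogaster represses pro-apoptotic genes such as reaper, grim and sickle, 15 of 23 probes rose and 0 fell. The share called was 65.2%, against 44.9% of all tested probes. miR-2c had log2 intensities of 8.89, 9.43, 8.60 and 9.36 at PF, against 7.54, 7.58, 6.90 and 7.60 earlier, a change of 1.66 ± 0.28 (adjusted p = 1.61e-06). miR-11, which lies in an intron of the cell cycle factor gene E2f1, had log2 intensities of 10.75, 11.01, 10.33 and 10.82 at PF, against 10.18, 9.14, 9.25 and 9.13 earlier, a change of 1.30 ± 0.22 (adjusted p = 2.03e-06). Earlier replicate 1 lay closest to the PF pools, but the stages did not overlap in either miRNA. miR-2a changed by 1.40 ± 0.20 and miR-2b by 1.09 ± 0.13 on the log2 scale, with adjusted p of 1.96e-08 and 1.14e-09. miR-13b, with the same seed, changed by 0.47 ± 0.24 (adjusted p = 0.102), and its stages overlapped. Since these targets are alike in sequence, part of one probe's signal may come from another member's RNA, which was not tested.

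The family of miR-279 and miR-996 is known in D. melanogaster for its part in the formation of sensory neurons and in JAK/STAT signalling. It rose in 4 of 5 tested probes (80% called, against 44.9% of all tested probes). All but dme-mir-996-5p are for miR-279 forms, which may read the same RNA (not tested). dme-mir-996-5p, the only miR-996 probe tested, rose by 0.45 ± 0.16 (adjusted p = 0.0151). miR-279 had log2 intensities of 12.95, 13.04, 12.90 and 12.91 at PF, against 12.01, 11.79, 11.48 and 11.08 earlier. The PF pools were tightly grouped and all lay above the more scattered earlier ones (change 1.36 ± 0.23, adjusted p = 1.08e-06).

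miR-275 and miR-305 come from 1 genomic cluster, yet only probes for miR-305 were called. miR-305, a regulator of Notch and insulin signalling in the D. melanogaster gut, was measured by a probe listed for D. melanogaster (23 bases), with log2 intensities of 8.38, 9.74, 8.91 and 9.998 at PF, against 8.14, 7.63, 8.19 and 7.95 earlier. Its change was 1.28 ± 0.19 (adjusted p = 9.27e-08), with means of 0.49 on the arrays with PF in Cy5 and 2.08 on those with PF in Cy3. The differences of single arrays ran from 0.25 to 2.11, a scatter that the SE of the fit does not measure. The 22-base probe listed for D. simulans was detected in 3 of 4 PF pools and 0 of 4 earlier ones, a rise of at least 1.30-fold (adjusted p = 0.0012). miR-275, the cluster partner, had log2 intensities of 12.94, 12.60, 13.19 and 13.02 at PF, against 13.02, 12.69, 12.77 and 12.94 earlier, with a change of 0.08 ± 0.14 (adjusted p = 0.707). miR-306, with the seed of miR-275, had log2 intensities of 8.35, 9.10, 8.34 and 8.59 at PF, against 7.19, 7.60, 6.96 and 7.63 earlier. Its stages did not overlap, and the change was 1.25 ± 0.18 (adjusted p = 7.75e-08). Whether the changes of miR-306 and miR-275 differ from each other was not tested.

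In the list of nervous system and sense organ miRNAs, 7 of 20 probes rose and 1 fell (40% called, against 44.9% of all tested probes). In the miR-9/79 list, which also holds miR-306 and does not share 1 seed, 4 of 9 rose (44.4% called). These shares are near that of all probes. miR-9a, which in D. melanogaster keeps sensory organ precursors from forming in excess by repressing senseless, changed by 0.81 ± 0.24 on the log2 scale (adjusted p = 0.00463), though without replicate 4 it was 0.66 with an adjusted p of 0.0596. miR-79, of the same list but with a different seed, rose by 0.60 ± 0.14 (adjusted p = 0.000441). miR-7, which acts in photoreceptor differentiation and supports stable developmental decisions, rose by 0.92 ± 0.21 (adjusted p = 0.000255), and its 4 PF pools lay above all earlier pools. miR-263b, known for protecting sense organ cells from cell death, changed by 0.69 ± 0.29 (adjusted p = 0.0446). That call was lost without replicate 2 (adjusted p = 0.124), 3 (0.309) or 4 (0.097). Of the same nervous system list, miR-124 (0.09 ± 0.09), miR-137 (-0.04 ± 0.12) and miR-263a (0.29 ± 0.16) were not called. miR-124 was detected in 1 of 4 PF pools and 0 of 4 earlier pools, and miR-137 in 0 of 4 at either stage. The probe that fell was miR-1000*, with a change of -1.28 ± 0.54 (adjusted p = 0.0486). It was detected in 0 of 4 PF pools and 2 of 4 earlier pools.

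The seed family of miR-92 and miR-310 is known in D. melanogaster from neural stem cells and the germ line. Of its 21 probes 10 were higher and 2 lower (57.1% called, against 44.9% of all tested probes). Apart from miR-311, the higher probes are all for miR-92 forms, most of them listed for other species. Several may read the same RNA, which was not tested. miR-92a rose by 0.81 ± 0.26 (adjusted p = 0.00724) and miR-92b by 0.69 ± 0.21 (adjusted p = 0.00432). miR-311 rose by 0.37 ± 0.13 (adjusted p = 0.0147), which became an adjusted p of 0.071 without replicate 1 and 0.0685 without replicate 4. miR-312, with the same seed, changed by 0.03 ± 0.13 (adjusted p = 0.885) with the probe listed for D. simulans. With that listed for D. melanogaster it changed by 0.05 ± 0.14 (adjusted p = 0.822). The 2 lower probes, aae-miR-92a* and dme-mir-313-5p, are for passenger arms and have runs of G.

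Among the miRNAs that fell, miR-34, known in D. melanogaster for its repression by ecdysone and for roles in aging and the germ line, had log2 intensities of 7.38, 7.45, 7.95 and 8.17 at PF, against 9.32, 8.88, 9.43 and 9.41 earlier. Every PF pool lay below every earlier pool, and the change was -1.52 ± 0.21 (adjusted p = 2.34e-08). The longer dme-miR-34 probe (24 bases) changed by -1.12 ± 0.18 (adjusted p = 4.71e-07) and the opposite arm, dme-mir-34-3p, by -1.18 ± 0.26 (adjusted p = 0.00013). At PF dme-miR-34 was detected in 1 of 4 pools and dme-mir-34-3p in 2 of 4, against 4 of 4 earlier pools for each. Background at PF thus limits the sizes of both falls. The cluster of miR-277, miR-34 and miR-317 as a whole had 4 of 13 probes lower, each of them for miR-34, and 1 higher. Its share called was 38.5%, against 44.9% of all tested probes. Cluster partner miR-277, a regulator of branched-chain amino acid catabolism in D. melanogaster, changed by -0.25 ± 0.21 (adjusted p = 0.365).

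miR-958 had log2 intensities of 6.84, 6.83, 7.24 and 6.90 at PF, against 8.83, 8.51, 9.16 and 8.81 earlier, a change of -1.88 ± 0.17 (adjusted p = 1.09e-13). miR-289 had log2 intensities of 6.54, 6.04, 6.77 and 6.74 at PF, against 8.13, 8.46, 7.59 and 8.11 earlier, a change of -1.55 ± 0.25 (adjusted p = 7.65e-07). Neither miRNA had an overlap between stages, and miR-289 was detected in 2 of 4 PF pools and 4 of 4 earlier ones. dsi-mir-314-5p had log2 intensities of 6.46, 6.29, 6.57 and 6.18 at PF, against 6.84, 6.78, 7.39 and 6.81 earlier, a change of -0.58 ± 0.07 (adjusted p = 9.59e-10). Its signal was near background, with 1 of 4 PF pools and 3 of 4 earlier pools detected. In the list of gut, fat body and metabolism miRNAs, 4 of 16 probes fell and 2 rose (37.5% called, against 44.9% of all tested probes), but with median centring or no normalization within arrays 0 fell and 3 rose. The 4 that fell are all for miR-281, of which dme-miR-281-2* changed by -0.91 ± 0.22 (adjusted p = 0.000534).

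The list of miRNAs linked to ecdysone in D. melanogaster held miR-8, miR-14, miR-34, miR-252, miR-277 and miR-965. Of its 25 probes 7 were higher and 6 lower (52% called, against 44.9% of all tested probes), with a median log2 change of 0.01. The 7 higher probes are all for miR-252, of which the probe listed for D. simulans rose by 0.57 ± 0.16 (adjusted p = 0.00283, and 0.151 without replicate 3). The 6 lower ones are 4 for miR-34 and 2 for miR-14. miR-8, which acts in the fat body on growth and insulin signalling, had log2 intensities of 12.45, 12.31, 12.49 and 12.77 at PF, against 11.79, 12.19, 13.55 and 12.43 earlier, a change of 0.01 ± 0.18 (adjusted p = 0.956). Earlier replicate 3 was the highest of the 8, and the other 3 earlier pools lay within or below the PF range. miR-14, which in D. melanogaster acts in fat metabolism, cell survival and ecdysone signalling, was detected in 0 of 8 samples by the probe listed for D. simulans (change -0.06 ± 0.62). A probe for the mosquito form, aae-miR-14, was detected in all 8 and changed by -0.47 ± 0.17 (adjusted p = 0.0169), which became 0.174 without replicate 3.

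**Figure D3:**
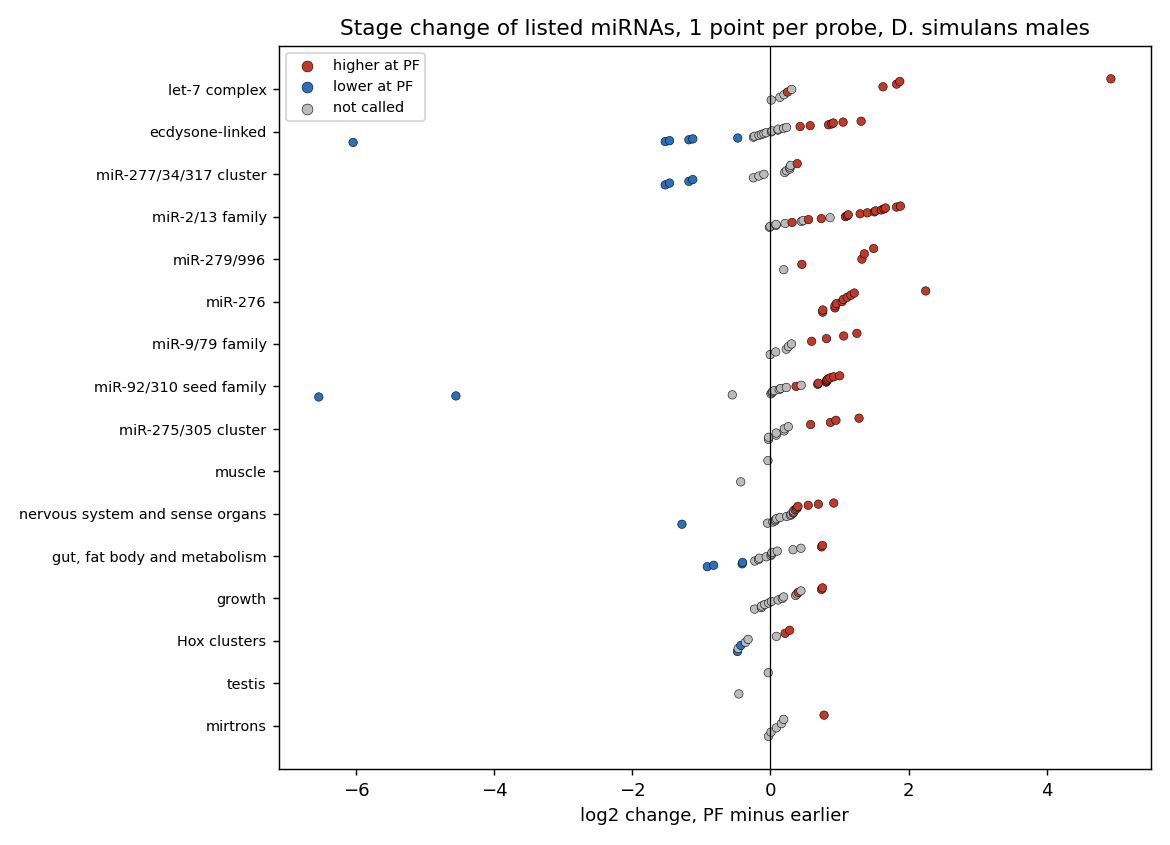
Log2 change at PF relative to the earlier stage (horizontal) for each tested probe of the miRNA lists (rows). Red points are higher at PF, blue lower and grey not called. All 11 miR-276 probes are red, and the 2 far left points of the row for miR-92 and miR-310 are passenger arm probes with runs of G.

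Muscle and testis miRNAs gave 0 calls. miR-1, the main miRNA of muscle and among the brightest probes, had log2 intensities of 14.45, 14.08, 14.10 and 14.21 at PF, against 14.63, 15.002, 14.05 and 14.87 earlier, a change of -0.43 ± 0.23 (adjusted p = 0.132). Quantile normalization turned its direction, to 1.15 with an adjusted p of 6.57e-10. In the muscle list 0 of 2 probes were called, and in the testis list 0 of 2. In the Hox cluster list 2 of 8 rose and 2 fell (50% called, against 44.9% of all tested probes). In the growth list 3 of 15 rose and 0 fell (20% called), and among mirtrons 1 of 6 rose and 0 fell (16.7% called). For the testis list, 2 of 19 miRNAs had a tested probe, and the ovary and early embryo lists had 0 tested probes.

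Over 8 other scalings the list medians stayed above 0 for the let-7 complex (4 to 7 probes higher), the miR-2/13 family (1 to 18) and miR-276 (0 to 11). They also did so for the family of miR-279 and miR-996 (1 to 4) and the miR-9/79 list (0 to 6). The remaining lists of this kind were miR-275 and miR-305 (0 to 7) and the seed family of miR-92 and miR-310 (0 to 13). The sign of the median turned in at least 1 scaling for the other lists with tested probes except testis.

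The largest falls were in probes whose target has runs of G, meaning a run of at least 4 G or at least 2 runs of 3. Of 20 such tested probes 11 fell (55%, against 12.5% of all tested probes) and 0 rose. Without them the counts were 90 higher and 23 lower. aae-miR-92a* had log2 intensities of 6.48, 5.49, 7.28 and 6.65 at PF, against 12.65, 12.78, 12.33 and 14.28 earlier, a change of -6.54 ± 0.73 (adjusted p = 7.73e-11). dme-mir-14-5p had log2 intensities of 7.69, 7.39, 10.16 and 8.66 at PF, against 13.72, 14.29, 14.96 and 15.10 earlier, a change of -6.04 ± 0.52 (adjusted p = 1.54e-14). The gaps between the stages were wider than the spread within either stage in both.

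The custom probe dme-wu-mir-2318-5p changed by -5.24 ± 0.48 (adjusted p = 1.21e-13) and dme-mir-313-5p by -4.55 ± 0.36 (adjusted p = 3.99e-16), also with runs of G. dsi-wu-mir-2548-3p, dsi-wu-mir-2349-3p and dsi-wu-mir-2329-5p each changed by -4.16, with SEs of 0.49, 0.51 and 0.52. Their targets are 1 identical sequence, so they are 1 measurement. The counts of lower, custom and G-run probes given here nevertheless hold each of them. dsi-wu-mir-2208-3p changed by -3.15 ± 0.42 and bmo-miR-2783 by -2.15 ± 0.27 (adjusted p = 5.12e-09 and 1.14e-09). These last 2 were detected in 1 of 4 PF pools, and dme-mir-313-5p, like both dme-wu-mir-2318-5p and aae-miR-92a*, in 2 of 4, against 4 of 4 earlier pools for each, so the sizes of these falls are limited by background at PF. Without runs of G, dsi-wu-mir-2774-5p changed by -3.14 ± 0.40 (adjusted p = 2.69e-09) and dsi-wu-mir-2359-3p by -2.18 ± 0.30 (adjusted p = 1.90e-08). The part of the sequence of these targets in the falls was not tested.

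By detection, 6 probes were present in at least 3 PF pools and 0 earlier pools, 5 of them called (83.3%). Another 10 were present in at least 3 earlier pools and 0 PF pools, 3 of them called (30%). Of all tested probes 44.9% were called. Because the sets were picked by detection at 1 stage, the direction of these calls follows from the choice and is no separate result. Beside miR-100, miR-125 and miR-305, the PF set held ame-miR-125 (at least 2.78-fold higher, adjusted p = 1.50e-08). The earlier set held dsi-wu-mir-2986-5p (at least 2.96-fold lower at PF, adjusted p = 0.00323), t454m18-seq-6-5p (at least 2.49-fold lower, adjusted p = 3.35e-07) and ame-miR-928 (at least 2.11-fold lower, adjusted p = 1.90e-08). These bounds are for the stage means, not for single arrays. dsi-wu-mir-2986-5p, which has runs of G, changed by a mean of -0.71 with PF in Cy5 and -3.31 with PF in Cy3. Its call was lost under 2 alternatives. For ame-miR-928 the means were -0.99 with PF in Cy5 and -2.07 with PF in Cy3.

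Probes for both arms of the custom hairpin dsi-wu-mir-2338 rose. The 3p arm had log2 intensities of 10.20, 11.87, 11.66 and 11.44 at PF, against 9.17, 8.52, 9.47 and 9.28 earlier, a change of 2.18 ± 0.28 (4.54-fold, adjusted p = 2.71e-09). The 5p arm had log2 intensities of 9.50, 11.64, 11.90 and 12.12 at PF, against 9.62, 9.11, 10.53 and 10.36 earlier, a change of 1.39 ± 0.32 (adjusted p = 0.00024). PF replicate 1 was the lowest PF pool on both arms, and on the 5p arm it lay within the earlier range.

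Whether the stage change of D. simulans males differed from that of other animals was tested by interaction. Against D. simulans females, 16 of 272 probes (5.88%) differed, 7 with a more positive and 9 with a more negative change in males (39 at unadjusted p under 0.05). Without the array as a block the counts were 3 and 5, and with the authors' processed table they were 0 and 0. The hairpin dsi-wu-mir-2338 went opposite ways: its 3p arm changed by 2.18 ± 0.28 in males and -1.61 ± 0.28 in females (difference 3.80 ± 0.40, adjusted p = 6.87e-11), with 1 of 4 female PF pools detected, and its 5p arm by 1.39 ± 0.32 in males and -2.71 ± 0.32 in females (difference 4.09 ± 0.45, adjusted p = 1.50e-10). miR-125 was detected in 4 of 4 PF pools and 0 of 4 earlier pools of either sex, so both rises have only a bound and the size of their difference is not measured (adjusted p of the interaction 2.68e-05). Its log2 intensity at PF averaged 8.05 in males and 10.24 in females. dme-miR-305 changed by 1.28 ± 0.19 in males and 0.00 ± 0.19 in females (difference 1.28 ± 0.27, adjusted p = 0.000679). For dme-miR-306 the values were 1.25 ± 0.18 in males and 0.28 ± 0.18 in females (difference 0.97 ± 0.26, adjusted p = 0.0128, and 0.0593 without replicate 3). Of the 9 more negative differences, 5 were in probes with runs of G. At PF, aae-miR-92a* and dme-wu-mir-2318-5p were each detected in 2 of 4 male pools and 0 of 4 female pools, so their falls are limited by background and the size of the difference between the sexes is not measured. At the earlier stage aae-miR-92a* averaged 13.01 in males and 9.39 in females, and dme-wu-mir-2318-5p 11.79 in males and 8.46 in females (log2 intensity, 4 of 4 pools detected in each). let-7 changed by 4.93 ± 0.24 in males and 4.68 ± 0.24 in females, a difference not called (adjusted p = 0.974). The females lay on 1 chip, by the number in the file names, and the D. simulans males on 2 others, so sex and chip cannot be told apart in these differences.

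Against males of the 4 D. melanogaster strains, 3 of 272 probes (1.1%) differed, 0 with a more positive and 3 with a more negative change in D. simulans (31 at unadjusted p under 0.05). miR-289 changed by -1.55 ± 0.25 in D. simulans and 0.02 ± 0.13 in D. melanogaster (difference -1.57 ± 0.28, adjusted p = 7.87e-05). Among the 4 strains its change was 0.73 in Oregon-R, 1.25 in Canton-S, -0.93 in Samarkand and -0.95 in Zimbabwe-109. The strains themselves thus ran both ways. The SE of the D. melanogaster mean and the p of the interaction come from the spread within strains and leave out the spread between them. dsi-mir-314-5p changed by -0.58 ± 0.07 in D. simulans and -0.04 ± 0.04 in D. melanogaster, where it was detected in 0 of 32 samples (difference -0.54 ± 0.08, adjusted p = 1.09e-06). Its target differs from that of the D. melanogaster probe at C19U and U20G, counted from the 5′ end with the D. melanogaster base first, and dme-mir-314-5p was detected in 0 of 8 D. simulans male samples. sdylib-seq-1-3p changed by 0.03 ± 0.21 in D. simulans, with 0 of 8 samples detected, and 1.64 ± 0.11 in D. melanogaster (difference -1.62 ± 0.24, adjusted p = 1.09e-06). let-7 changed by 4.93 ± 0.24 in D. simulans and 4.73 ± 0.12 in D. melanogaster (adjusted p of the difference 0.876). The 2 chips of the D. simulans males also held 16 of the 32 D. melanogaster male samples.

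Against D. yakuba males, 24 of 272 probes (8.82%) differed, 15 with a more positive and 9 with a more negative change in D. simulans (57 at unadjusted p under 0.05). Without the array as a block the counts were 1 and 1. dme-miR-34 was detected in 1 of 4 D. simulans PF pools and 4 of 4 D. yakuba PF pools, with PF means of 6.48 in D. simulans and 6.42 in D. yakuba and earlier means of 7.60 in D. simulans and 8.91 in D. yakuba. Its fall in D. simulans is thus limited by background, and the size of the called interaction (adjusted p = 0.000208) is not measured. The shorter miR-34 probe changed by -1.52 ± 0.21 in D. simulans and -1.95 ± 0.21 in D. yakuba (adjusted p of the difference 0.441). dme-miR-277, from the cluster of miR-34, changed by -0.25 ± 0.21 in D. simulans and -1.24 ± 0.21 in D. yakuba (difference 0.99 ± 0.30, adjusted p = 0.0223, and 0.0701 without replicate 1 and 0.0641 without replicate 4). A difference was called for 6 probes for miR-263 forms of other species. It was not called for the miR-263a and miR-263b probes listed for D. simulans. The largest of the 6 was in tca-miR-263a, which changed by 0.55 ± 0.16 in D. simulans and -0.42 ± 0.16 in D. yakuba (difference 0.97 ± 0.23, adjusted p = 0.00395). miR-100 was detected in 4 of 4 PF pools and 0 of 4 earlier pools of either species, so both rises have only a bound, and the interaction (adjusted p = 0.00174) takes in the gap between the background values of the earlier pools, which averaged 6.56 in D. simulans and 5.88 in D. yakuba. t454m18-seq-6-5p was detected in 0 of 4 PF pools and 4 of 4 earlier pools of D. simulans, and in 0 of 8 D. yakuba samples (adjusted p of the interaction 0.00346). miR-289, detected in 2 of 4 D. simulans PF pools, changed by -1.55 ± 0.25 in D. simulans and 0.01 ± 0.25 in D. yakuba (difference -1.56 ± 0.36, adjusted p = 0.00346). The D. yakuba males were 1 stock on 1 chip that held no D. simulans males, so species, stock and chip cannot be told apart here. For all species differences, mismatches between probe and RNA were not tested.

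**Figure D4:**
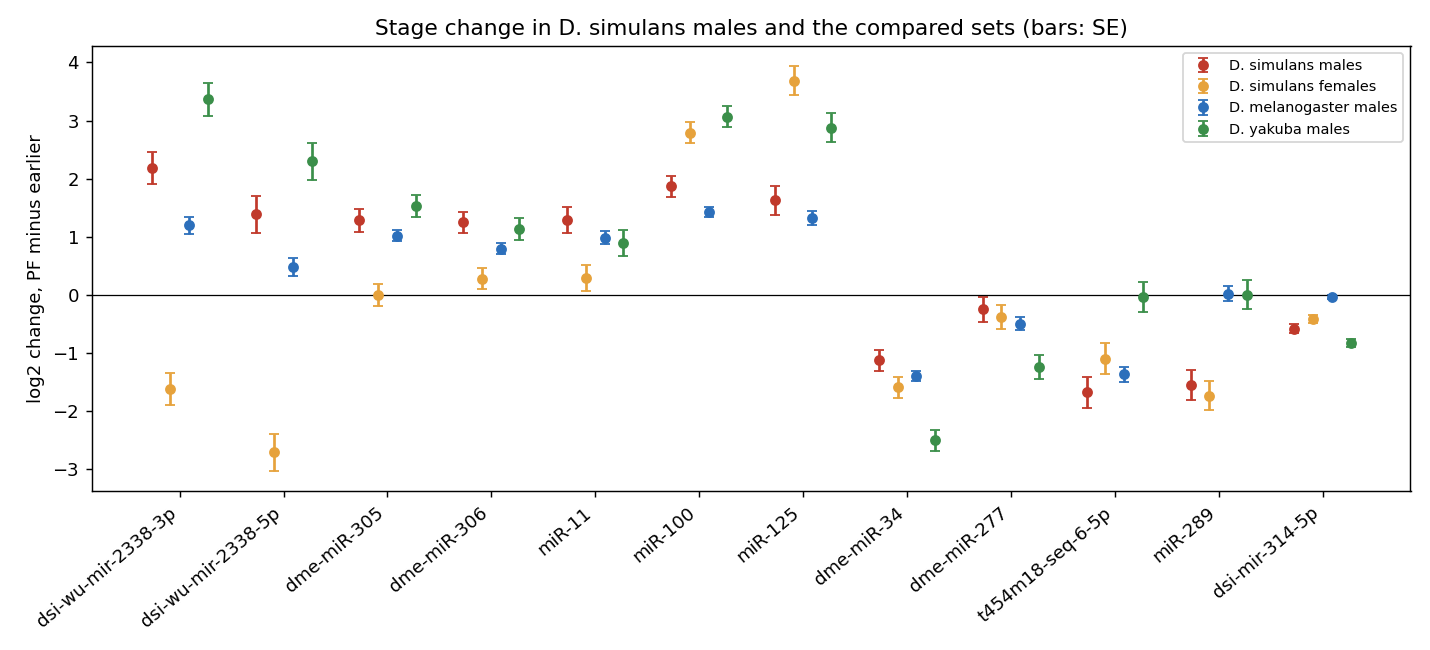
Log2 change at PF relative to the earlier stage (vertical) for 12 probes in D. simulans males (red), D. simulans females (orange), D. melanogaster males (blue) and D. yakuba males (green), with SE bars. Both dsi-wu-mir-2338 arms are above 0 in D. simulans males and below 0 in D. simulans females, and the changes of miR-100 and miR-125 are measured from background at the earlier stage.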

How the data were processed

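The deposited array files give 1 intensity per spot and channel, the median pixel density, unlogged and not normalized; their headers name the RNA sample and its Cy3 or Cy5 dye. Per the labels, LC Sciences did the labelling, and RNA was extracted from ground whole animals with a miRVana kit. Each of the 72 array files carries both channels of its array. The 72 intensity columns not read from a file were identical to those read from the partner sample's own file, and 0 columns belonged to no sample. The authors also deposited a table of processed intensity values of unstated scaling and centring, used only as an alternative. In the D. simulans male columns its median over miRNA probes ran from 0.367 to 1.41. The authors' scanner settings were not used here.

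With limma 3.58.1 in R 4.3.3, intensities were corrected by normexp (offset 50) using the 689 empty spots as background, normalized by loess within arrays and Aquantile between arrays, and the 3 spots of a probe were summarised by their median on the log2 scale. The limma fit covered all 72 samples in 18 groups, with dye as a covariate and the array as a block (correlation 0.411). The array pairs the stages, per the file headers, and on an array the 2 samples' deviations from their group means correlated at 0.0842 to 0.183 on the 4 D. simulans male arrays. P-values were adjusted by Benjamini-Hochberg over 272 probes in each comparison. SEs are those of the fit. The number of arrays limits the precision.

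Named probes are up to 12 per direction with the largest called change in the same direction on all 4 arrays, up to 5 per direction and interaction, list members, probes detected at 1 stage only and the 5 brightest. The members and lists were chosen with earlier results of these data known. The fit was tested on simulated data.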

Additional observations from a re-analysis of the deposited data

Results flagged for a closer look

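Among the 4 log2 differences of a probe, one per array, 3 of 53 named probes examined had a value far from the other 3. Chance gives about 1 in 20 such cases, so 3 of 53 is near the chance count. miR-276a stood at 0.82 on array 3 against 1.32 to 1.36 on the others, dme-miR-34 at -0.72 on array 3 against -1.30 to -1.24, and miR-263b at -0.51 on array 1 against 0.99 to 1.16.

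The following differences between D. simulans males and another set were called by an interaction test, given as D. simulans males minus the other set on the log2 scale. Against D. simulans females they were -3.24 for aae-miR-92a*, -2.89 for dme-wu-mir-2318-5p, -2.17 for dsi-wu-mir-2208-3p, -2.06 for miR-125, -2.03 for dme-mir-313-5p, 0.97 for dme-miR-306, 1.01 for miR-11, 1.28 for dme-miR-305, 3.80 for dsi-wu-mir-2338-3p and 4.09 for dsi-wu-mir-2338-5p. Against D. melanogaster males they were -1.62 for sdylib-seq-1-3p, -1.57 for miR-289 and -0.54 for dsi-mir-314-5p. Against D. yakuba males they were -1.64 for t454m18-seq-6-5p, -1.56 for miR-289, -1.25 for miR-125, -1.19 for miR-100, -1.19 for dsi-wu-mir-2338-3p, 0.97 for tca-miR-263a, 0.99 for dme-miR-277, 1.03 for dpu-miR-252a, 1.07 for aae-miR-277 and 1.37 for dme-miR-34. Where a probe was not detected at a stage in most pools of either set (miR-100, miR-125, dsi-wu-mir-2208-3p, dme-mir-313-5p, aae-miR-92a*, t454m18-seq-6-5p, dme-wu-mir-2318-5p, sdylib-seq-1-3p, dsi-mir-314-5p, dme-miR-34, and dsi-wu-mir-2338-3p in females), the background limits the size of the difference.

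Some of these calls were lost with 1 array left out. Against females the highest adjusted p was then 0.185 for aae-miR-92a*, 0.166 for miR-11, 0.115 for dsi-wu-mir-2208-3p, 0.112 for dme-mir-313-5p and 0.0593 for dme-miR-306. Against D. yakuba it was 0.291 for dsi-wu-mir-2338-3p, 0.215 for dpu-miR-252a, 0.0909 for miR-125, 0.0701 for dme-miR-277 and 0.058 for aae-miR-277. The call for miR-11 against females was kept in 7 of 22 alternatives and lost in 15.

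Outside the miRNA probes, the 5S rRNA control spots had a lowest sample median of 4959 at PF, above the highest earlier median of 3880.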

How the results depend on the processing

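There were 22 alternatives that did not use the authors' table. Of 47 named stage changes called, 35 kept their direction and their call in each of these that held their probe. The other 12 lost the call at least once. Of 53 named stage changes, called or not, 31 had a probe detected in all 8 samples. Leaving out G-run probes kept 43 of the 53, and the filter of 3 samples in a D. simulans male group kept 52. With the authors' processed values 37 of the 53 held, 12 weakened and 2 reversed. With those values centred 21 held, 28 weakened and 4 reversed. With probes of G runs left out, an alternative chosen after seeing the data, the counts were 90 and 23. Leaving out 1 array gave 71 to 83 higher and 28 to 31 lower probes. The fit with no replicate block gave 63 and 28. The counts of higher and lower probes moved beyond 1.5 times to 9 and 19 with the authors' centred table, 53 and 19 with probes detected in all 8 samples, 54 higher on chip 2 alone and 21 lower with median centring. With median centring 85.31% of calls were higher, it was 56.36% with the authors' table, 32.14% with that table centred and 72.13% as reported.

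Against D. melanogaster males the counts higher and lower were 1 and 12 with subtraction, 2 and 8 with offset 16 and 3 and 5 with quantile normalization. Males only gave 3 and 7. There was 1 lower with no normalization within arrays, and 0 with the authors' centred table or probes detected in all 8. There was 1 higher with the mean of spots, probes detected in 3 of a D. simulans male group, chip 1 alone or G-run probes left out, and 2 with the authors' table or chip as a fixed term. Leaving out 1 array gave 0 to 2 higher and 3 to 5 lower.

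Against females they were 3 and 3 with median centring, 2 and 4 with no normalization within arrays, 0 and 0 with the authors' table, centred or not, 3 and 5 with no replicate block and 3 and 3 on chip 2 alone. There were 4 higher with cyclic loess, 3 higher with no filter, 0 lower with probes detected in all 8 and 4 lower with G-run probes left out. Leaving out 1 array gave 5 higher and 5 to 8 lower.

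Against D. yakuba males they were 1 and 2 with no normalization within arrays, 0 and 1 with the authors' table, 154 and 0 with it centred, 5 and 4 with no filter, 25 and 16 with males only, 1 and 1 with no replicate block, and 4 and 4 on chip 1 alone. There were 6 higher with offset 16, 7 with quantile normalization and 4 with cyclic loess, and 14 lower with subtraction, 2 with median centring, 2 with probes detected in all 8 and 3 on chip 2 alone. Leaving out 1 array gave 10 to 15 higher and 4 to 7 lower.

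Directions turned as follows, and the cause was not tested. miR-275 changed by -0.13 with offset 16, -0.17 with the authors' table, -0.49 with it centred and -0.084 on chip 1, and by -0.061 to 0.17 with 1 array left out. miR-8 changed by -0.21 with offset 16, -0.043 with cyclic loess, -0.30 with the authors' table, -0.62 with it centred and -0.36 on chip 2, and by -0.21 to 0.38 with 1 array left out. miR-14 changed by -0.14 to 0.021 with 1 array left out. dme-miR-277 changed by 0.31 with median centring and 0.26 with no normalization within arrays. Quantile normalization gave 0.87 for aae-miR-14 and 1.15 for miR-1. The authors' centred table gave -0.30 for miR-13b and -0.19 for miR-252. For the male minus female differences the authors' table gave 1.83 for aae-miR-92a*, 1.13 for dme-wu-mir-2318-5p, 0.41 for miR-125 and 1.93 for dme-mir-313-5p, and with it centred 1.61, 0.92, 0.19 and 1.71. Centred, it also gave 0.12 for sdylib-seq-1-3p against D. melanogaster, and 1.14 for miR-289 and 2.50 for dsi-wu-mir-2338-3p against D. yakuba.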
